A study of Rattus norvegicus with 4 samples.

Results

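The genes described here are neurotrophic factors and their receptors, 8 genes chosen by name: the ligands Bdnf, Ntf3 and Gdnf, and the receptors Ntrk2, Ntrk3, Ngfr, Gfra1 and Gfra2. Of these, 7 were matched by symbol among the 25399 genes of the count tables, and Gfra1 was not analysed here. Their identifiers are ENSRNOG00000018839 (Ntrk2), ENSRNOG00000018674 (Ntrk3), ENSRNOG00000005392 (Ngfr), ENSRNOG00000047466 (Bdnf), ENSRNOG00000019716 (Ntf3), ENSRNOG00000012819 (Gdnf) and ENSRNOG00000014010 (Gfra2). A list of related pathway genes gave context, of which 62 of 65 were matched. The study compared a limb muscle, the tibialis anterior (TA), with the muscles that move the eye (extraocular muscles, EOM), in rats aged 12 months. Each muscle was sampled by 1 library labelled wild-type (WT) and 1 labelled DMD, the labels' abbreviation, which usually stands for Duchenne muscular dystrophy, a disease of dystrophin loss. All cells released by enzymatic digestion were run on droplet 3' single-cell RNA sequencing, and no sorting is recorded. Rat strain, sex, dystrophin allele and the number of animals behind each library are not given by the labels.

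WT and DMD below follow the disease state field of the labels. The sample titles state the opposite disease state for all 4 libraries, so reading the titles would turn every DMD against WT direction given here. Comparisons between muscles would keep their direction, with the WT pair and the DMD pair exchanged. The 3' tags of Dmd do not check the labels, since they lie at the transcript's end and can be read past a mutation upstream. Dmd was at 126, 74.98, 66.9 and 72.3 CPM in satellite-like cells of TA WT, TA DMD, EOM WT and EOM DMD. In the same libraries it was at 427, 160.02, 229 and 164 CPM in Schwann-like cells. Mural-like cells had 63.4, 36.1, 60.3 and 40.5 CPM. Myofibre-like cells had 4.37, 117, 0 and 7.21 CPM, from 1, 19, 0 and 3 UMIs, the 19 in 2 of 101 cells. The order of the 4 libraries differed between classes. Satellite-like, Schwann-like and mural-like cells had less Dmd in TA DMD than in TA WT, with intervals apart for Schwann-like and mural-like cells. Within EOM it was lower in DMD in Schwann-like and mural-like cells and higher in satellite-like cells, with overlapping intervals. With 1 library per group there was no replicate, and no test could be made. Intervals in parentheses are 95% intervals, exact Poisson for levels, exact Clopper-Pearson for shares and conditional exact for fold changes, and they cover counting error only.

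The analysed cells numbered 2083 in TA WT, 7964 in TA DMD, 1249 in EOM WT and 2261 in EOM DMD, with 6522117 to 19269545 unique molecular identifiers (UMIs) per library. Median UMIs per cell ranged from 1224 in TA DMD to 4488 in EOM DMD, and any 2 libraries shared at most 5 barcodes. Levels are given as CPM, a gene's UMIs per 1000000 UMIs of the class or cluster. Cell classes were rebuilt from marker genes and are named as "like". The satellite-like class had UMIs of 8 of 8 satellite markers in each library, and the mural-like class of 10 of 10 mural markers. Any UMI counted here, and the classes were named from these same lists, so these counts do not check the names. Of 6 neuron markers, Syt1, Rbfox3 and Snap25 gave at most 8 UMIs per library, Nefl 0 to 21 and Tubb3 4 to 77. Stmn2 gave 1017 UMIs in TA DMD, seen in fibroblast-like cells, and at most 4 elsewhere.

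Neurotrophins are secreted growth factors best known for keeping sensory and motor neurons alive. BDNF acts mainly through the receptor tyrosine kinase TrkB (Ntrk2) and NT-3 (Ntf3) mainly through TrkC (Ntrk3), while p75 (Ngfr) binds all neurotrophins with lower affinity. GDNF and its relative neurturin bind the surface-anchored co-receptors GFRα1 and GFRα2 (Gfra2), which signal with the receptor tyrosine kinase RET. In muscle these factors are studied as signals from muscle to nerve, and satellite cells, the stem cells of muscle, and Schwann cells, the glia of peripheral nerve, are known to express several of the genes. The 3' tags do not tell full-length TrkB from its truncated forms.

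Ntf3 was the ligand with substantial counts, at 1111 UMIs in 815 cells, against 54 UMIs in 38 cells for Bdnf and 13 UMIs in 13 cells for Gdnf. Among receptors, Ntrk2 had 2522 UMIs, Gfra2 973, Ntrk3 250 and Ngfr 238. Ntf3 spread over satellite-like, endothelial-like, fibroblast-like and mural-like cells, and was nearly absent from Schwann-like cells, with 1 UMI in TA DMD and 0 in the other 3 libraries. Myofibre-like cells gave 0 UMIs of Ntf3 and of Bdnf in each library, from 37 to 154 cells. The upper limit for each gene was 4.14 CPM over all libraries together. It was 44.6 CPM in EOM WT, whose myofibre-like sum of 82656 UMIs was the smallest. Schwann-like cells in turn held the highest Ntrk2 level of the 5 main classes in each library, and levels of Ntrk3 above those of the satellite-like, fibroblast-like and endothelial-like classes.

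**Figure D1:**
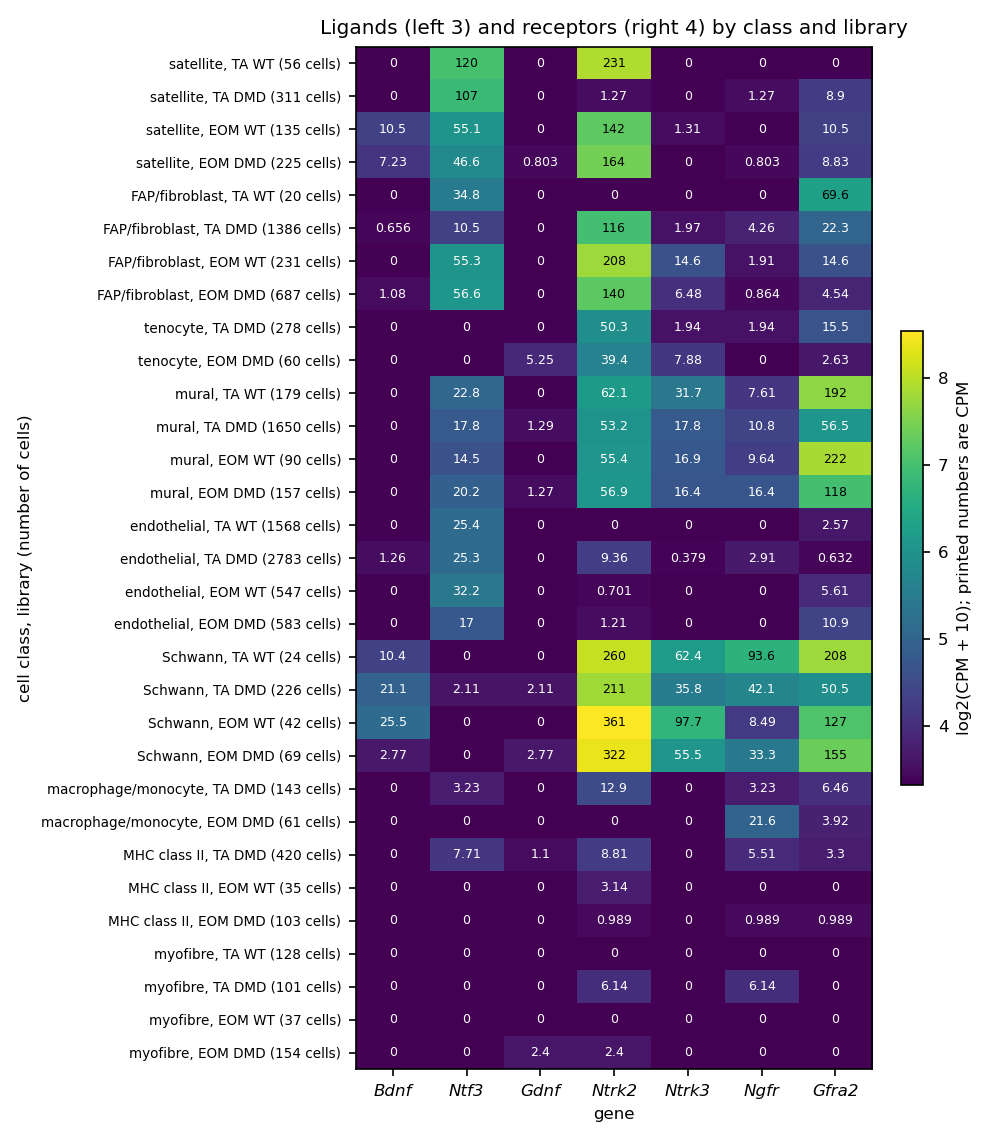
CPM of the 3 ligands and 4 receptors (columns) in satellite, fibroblast, tenocyte, mural, endothelial, Schwann, macrophage, MHC class II and myofibre-like cells of each library with at least 20 such cells (rows); colour is log2(CPM + 10) and the printed numbers are CPM. Ntrk2 reads 231 CPM in satellite-like cells of TA WT and 1.27 CPM in those of TA DMD, while Ntf3 reads 120 and 107 CPM in the same rows.

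Ntf3, which encodes NT-3, was highest in satellite-like cells of TA. There it stood at 120 CPM (85.9 to 164) in TA WT and 107 CPM (85.2 to 132.2) in TA DMD, against 55.1 CPM (39.7 to 74.5) in EOM WT and 46.6 CPM (35.4 to 60.2) in EOM DMD. Both TA values lay above both EOM values, and the TA and EOM intervals did not overlap. EOM was 2.18-fold lower (1.38 to 3.45) in the WT pair and 2.29-fold lower (1.62 to 3.26) in the DMD pair, while the labelled disease states differed by 1.13-fold in TA and 1.18-fold in EOM, within counting error.

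The opposite order of muscles was seen for Ntf3 in fibroblast-like cells, the class that includes fibro-adipogenic progenitors. Ntf3 stood at 10.5 CPM (7.17 to 14.8) in TA DMD, 55.3 CPM (44.3 to 68.2) in EOM WT and 56.6 CPM (49.96 to 63.9) in EOM DMD, and was thus 5.40-fold higher (3.73 to 8.05) in EOM DMD than in TA DMD. TA WT had 20 such cells with 2 Ntf3 UMIs, too few to place. Different clusters held these cells: 80.9% of the fibroblast-like cells of EOM DMD were in a Ces1d-led cluster that held 0.433% of those of TA DMD. Median depth was 930 UMIs in the TA DMD cells and 7012 in the EOM DMD cells. For shares after thinning, here and below, cells with at least 1000 UMIs were thinned to 1000 UMIs and shallower cells were left out. The TA DMD median of 930 UMIs lay under this limit, so most of those cells were left out. In the cells that remained the share with Ntf3 was 0.939% (0.345 to 2.03) against 5.42% (3.80 to 7.45). Unthinned shares, over all cells, were 1.88% and 24.5%. Endothelial markers summed to 488 CPM in the TA DMD cells and 27.4 CPM in the EOM DMD cells, and their part in the difference was not tested.

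Endothelial-like cells held Ntf3 at a lower level of 25.4 CPM (20.6 to 30.9) in TA WT, 25.3 CPM (21.9 to 29.1) in TA DMD, 32.2 CPM (23.6 to 43.0) in EOM WT and 16.98 CPM (11.3 to 24.5) in EOM DMD. The TA libraries differed by less than counting error, while EOM DMD was 1.90-fold lower (1.16 to 3.16) than EOM WT. They carried the largest share of the gene's UMIs in TA, at 61.5% in TA WT and 49.5% in TA DMD. In EOM the fibroblast-like cells carried the largest share, at 48.1% in EOM WT and 71.8% in EOM DMD. Such shares also depend on how many UMIs of all genes a class held. For endothelial-like cells these were 3897985 of 6730142 UMIs in TA WT and 7907329 of 19269545 in TA DMD. For fibroblast-like cells they were 1573820 of 6522117 in EOM WT and 4628729 of 12152568 in EOM DMD. Among endothelial-like clusters of TA DMD, one led by Plvap and Selp, genes of venules, had Ntf3 at 36.3 CPM (30.2 to 43.4). Without that cluster the log2 ratio of TA DMD to TA WT moved from -0.0043 to -0.39.

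**Figure D2:**
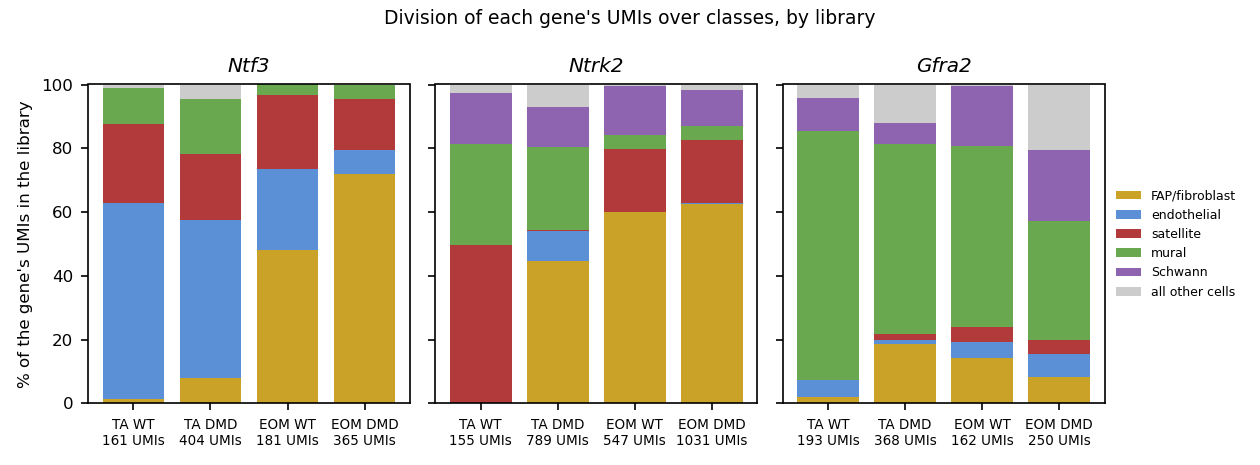
Share of the UMIs of Ntf3, Ntrk2 and Gfra2 (percent, y axis) that each class held in each library (x axis, with the gene's UMI total); colours mark 5 classes and grey all other cells. The largest share of Ntf3 UMIs lies in endothelial-like cells in TA and in fibroblast-like cells in EOM, and satellite-like cells hold 49.7% of Ntrk2 UMIs in TA WT. Shares also depend on how many UMIs of all genes a class holds.

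Bdnf was seen in few cells and at the edge of detection. In satellite-like cells it gave 0 UMIs in 56 cells of TA WT, 0 in 311 of TA DMD, 8 UMIs in 5 of 135 cells of EOM WT and 9 UMIs in 5 of 225 cells of EOM DMD. Counts were thus found in the 2 EOM libraries and not in TA, but the upper limit of 11.1 CPM in TA WT covers the 10.5 CPM (4.53 to 20.7) of EOM WT, so a difference was not detectable at this depth for the WT pair. For the DMD pair, TA DMD had an upper limit of 4.69 CPM against 7.23 CPM (3.30 to 13.7) in EOM DMD, whose intervals overlap. Schwann-like cells had 1, 10, 6 and 1 Bdnf UMIs in TA WT, TA DMD, EOM WT and EOM DMD, at 10.4, 21.1, 25.5 and 2.77 CPM. Gdnf gave 7 UMIs in TA DMD, 6 in EOM DMD and 0 in both WT libraries, and 5 of the 13 fell in a Ccl11-led mural-like cluster.

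Ntrk2, which encodes TrkB, gave the widest contrast between libraries of the 7 genes. In satellite-like cells it was at 231 CPM (183 to 289) in TA WT, 142 CPM (116 to 171) in EOM WT and 164 CPM (142 to 188) in EOM DMD, but at 1.27 CPM (0.0322 to 7.08) in TA DMD, where 1 UMI was found in 311 cells. The other 3 libraries were thus high and TA DMD stood alone near 0. The ratio of TA WT to TA DMD was 182-fold, with a counting interval of 31.7 to 7284 that reflects the single UMI. On the log2 scale with a prior of 10 CPM on both sides, the TA DMD to TA WT ratio was -4.42, and the EOM DMD to EOM WT ratio was 0.20. The EOM DMD level was 1.16-fold that of EOM WT (0.911 to 1.47), within counting error.

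Most satellite-like cells of TA DMD (79.4%) sat in a shallow Cpa1-led cluster that held 10.7% of those of TA WT and at most 2.22% of those of either EOM library, so the Nppc-led cluster present in all 4 libraries was examined alone. Within it Ntrk2 gave 75 UMIs in 33 of 50 cells of TA WT, 0 UMIs in 64 cells of TA DMD, 107 UMIs in 56 of 132 cells of EOM WT and 204 UMIs in 111 of 222 cells of EOM DMD. Against a floor of 3 counts in the library's cluster sum, TA DMD was at least 34.9-fold lower than TA WT. Median depth per cell was 6882 UMIs in TA WT and 6856 in TA DMD. After thinning to 1000 UMIs, the share of cells with Ntrk2 was 26% (14.6 to 40.3), 0% (0 to 5.60), 16.3% (10.4 to 23.8) and 15.5% (10.9 to 20.9) in TA WT, TA DMD, EOM WT and EOM DMD. As a background for such shares, 0 of 1367 thinned endothelial-like cells of TA WT held Ntrk2 (interval 0 to 0.269%, and 3 counts of the total would be 0.219%), and 0.566% of those of TA DMD, at median depths of 2298 and 1838 UMIs.

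The 8 satellite markers were all counted in those 64 cells of TA DMD, some higher and some lower than in TA WT. Pax7, the transcription factor that defines satellite cells, stood at 357, 396, 262 and 301 CPM in TA WT, TA DMD, EOM WT and EOM DMD, and the myogenic factor Myf5 at 1056, 1337, 1208 and 1230 CPM. Of the other markers, Fgfr4 was at 465 CPM in TA WT and 502 CPM in TA DMD, while Calcr was at 228 and 88.1 CPM, Megf10 at 295 and 154 CPM, Cdh15 at 480 and 308 CPM and Myod1 at 425 and 275 CPM. Chrdl2, a BMP antagonist that is also on the satellite list, was at 326, 2.20, 665 and 350 CPM in TA WT, TA DMD, EOM WT and EOM DMD, low in the same library as Ntrk2. These markers other than Pax7 were chosen here after their values were seen. Fibroblast markers summed to 2788 CPM in TA WT and 4895 CPM in TA DMD. In TA WT nearly all of that sum was Dpt and Gsn, at 1391 and 1385 CPM, which were also high in the other libraries. Dcn was at 3.08 CPM in TA WT and 546 CPM in TA DMD, Col3a1 at 0 and 716 CPM and Col1a1 at 6.16 and 117 CPM, and all 3 were highest in TA DMD of the 4 libraries. From TA WT to TA DMD, endothelial markers summed to 33.9 and 200.4 CPM and mural markers to 3022 and 1420.2 CPM. Their part in the result was not tested.

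The ligand in the same cells did not follow the receptor. Ntf3 in the Nppc-led cluster was 123 CPM (87.9 to 168) in TA WT and 112 CPM (83.6 to 148) in TA DMD, a ratio of 0.912 (0.591 to 1.42), and 55.3 CPM and 49.1 CPM in EOM WT and EOM DMD. Ntrk2 and Ntf3 were found together in 20 of 56 satellite-like cells of TA WT, 0 of 311 of TA DMD, 12 of 135 of EOM WT and 14 of 225 of EOM DMD. Ntrk3, the main receptor of NT-3, gave 0 UMIs in satellite-like cells of 3 libraries and 1 UMI in EOM WT.

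**Figure D3:**
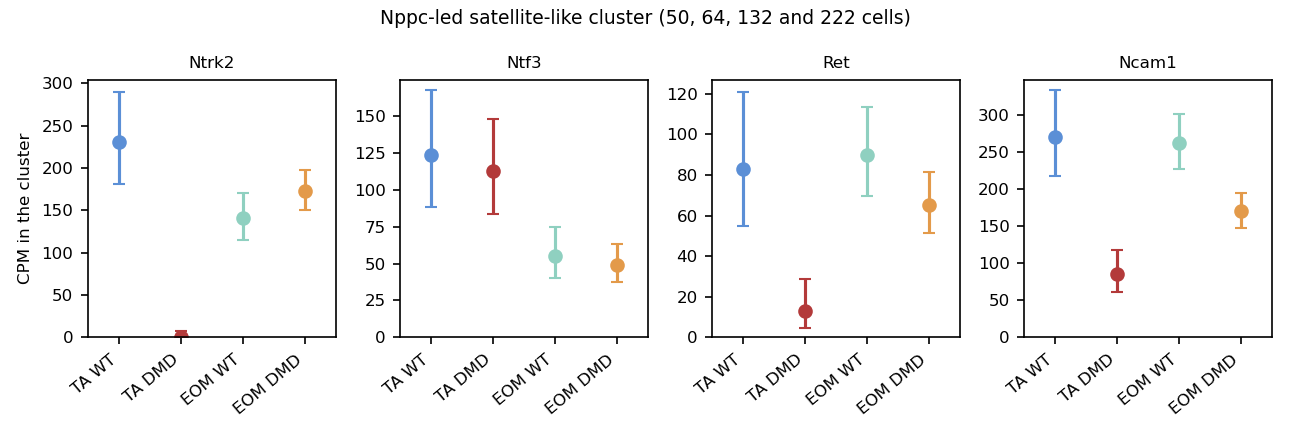
CPM of Ntrk2, Ntf3, Ret and Ncam1 in the Nppc-led satellite-like cluster by library (points, with 95% Poisson intervals; y axes start at 0 and differ between panels). Ntrk2 is at 0 in TA DMD while Ntf3 lies at 112 CPM there, and Ret and Ncam1 are lower in TA DMD than in the other 3 libraries.

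Ret, the signalling receptor of the GDNF family, was also lowest in TA DMD. Ret was at 83.1 CPM (54.8 to 121) in TA WT, 13.2 CPM (4.85 to 28.8) in TA DMD, 89.6 CPM (69.6 to 114) in EOM WT and 65.2 CPM (51.5 to 81.5) in EOM DMD within the Nppc-led cluster, 6.29-fold lower (2.54 to 18.6) in TA DMD than in TA WT. Ncam1, a cell adhesion molecule that can also bind GDNF with its co-receptor, was at 271, 85.9, 262 and 170 CPM in TA WT, TA DMD, EOM WT and EOM DMD, 3.15-fold lower (2.14 to 4.72) in TA DMD than in TA WT. Gfra2 was 0 CPM in this cluster in both TA libraries and 10.5 and 9.32 CPM in EOM WT and EOM DMD.

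Among pathway list genes with at least 10 UMIs in satellite-like cells of the 2 TA libraries, 9 of 30 were at least 2-fold lower in TA DMD than in TA WT and 3 were at least 2-fold higher, with a prior of 10 CPM added to both sides here and in the counts below, against 4.22% lower and 7.48% higher over the 8297 genes tested in the same way. The median log2 ratio was -0.25 for the list and -0.04 for all genes. The 9 lower genes included Ntrk2, Ret and Ncam1 as well as midkine (Mdk), a heparin-binding growth factor, which stood at 75.1 CPM in TA WT and 12.7 CPM in TA DMD. The higher genes were Ptn (pleiotrophin, the relative of midkine, 42.1 to 123 CPM), Il6st (the gp130 receptor chain, 24.0 to 67.4 CPM) and Plat (tissue plasminogen activator, 42.1 to 114 CPM). Endothelial-like cells of TA DMD had these 3 at 213, 353 and 388 CPM. The shallow Cpa1-led cluster held 79.4% of the satellite-like cells of TA DMD and 10.7% of those of TA WT. The part of cluster makeup and of RNA from other cells in these counts was not tested. Between the EOM libraries 0 of 34 list genes were 2-fold higher in DMD and 2 were lower, against 1.09% and 1.66% of all genes. In EOM WT against TA WT the list gave 2 higher and 2 lower of 30 (3.35% and 2.69% over all genes). Ntf3 was one of the lower, at a log2 ratio of -1.0006. With TMM scaling, an alternative, it was -0.88 there and -0.85 in the DMD pair, short of 2-fold. In EOM DMD against TA DMD the list gave 5 higher and 3 lower of 33 (2.26% and 6.05%), with Ret, Mdk, Ncam1 and Ntrk2 among the higher and Ntf3, Ptn and Il6st lower. These comparisons share libraries, so the same TA DMD value enters both.

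Fibroblast-like cells held Ntrk2 in both muscles, at a higher level in each EOM library than in TA DMD. It was at 116 CPM (104 to 128) in TA DMD, 208 CPM (186 to 232) in EOM WT and 140 CPM (129 to 151) in EOM DMD, and TA WT gave 0 UMIs in 20 cells (upper limit 64.2 CPM). EOM WT was the highest and its interval did not overlap the other 2, at 1.49-fold (1.30 to 1.71) the EOM DMD level. After thinning, the share of cells with Ntrk2 was 11.1%, 11.8% and 11.0% in TA DMD, EOM WT and EOM DMD, with overlapping intervals. Unthinned shares were 15.7%, 43.3% and 41.8%, at median depths of 930, 6891 and 7012 UMIs.

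The rarer receptors in fibroblast-like cells were lower in DMD than in WT within EOM. Ntrk3 was at 1.97 CPM (0.722 to 4.28) in TA DMD, 14.6 CPM (9.26 to 21.9) in EOM WT and 6.48 CPM (4.37 to 9.25) in EOM DMD. Gfra2 was at 22.3 CPM (17.3 to 28.3), 14.6 CPM (9.26 to 21.9) and 4.54 CPM (2.81 to 6.94) in the same libraries, so EOM DMD lay 4.91-fold (2.97 to 8.44) below TA DMD. Ret was at 2.95, 30.5 and 14.04 CPM, highest in EOM WT. The Gfra2 levels rested on 68, 23 and 21 UMIs. Over all libraries Gfra2 was at 92.8 CPM in a cluster with Apod and Gpc3 among its leading genes. It was at 3.47 CPM in the Ces1d-led cluster that held most of these cells in EOM. The former cluster held 6.28% of fibroblast-like cells in TA DMD, 5.63% in EOM WT and 1.89% in EOM DMD. The part of this makeup in the differences was not tested.

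With the prior of 10 CPM, 0 of 42 pathway list genes in fibroblast-like cells were past 2-fold between the EOM libraries (0.373% higher and 0.462% lower over all genes). The plain ratios of Ntrk3, Gfra2 and Ret above do exceed 2-fold, and a prior of 1 CPM gave 7 such genes. Between EOM DMD and TA DMD, 5 of 44 were higher and 3 lower, against 1.41% and 2.64% of 11853 genes. Higher in EOM were Ntf3, the proprotein convertase Pcsk6 (36.7 to 299 CPM) and Cntfr, the receptor of ciliary neurotrophic factor (43.6 to 123 CPM). Among the lower were Gfra2 and Sort1, the sorting receptor sortilin, which binds proneurotrophins (1.94 against 17.4 CPM).

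Mural-like cells, which wrap vessels, divided the receptors between clusters. In the cluster led by the pericyte genes Kcnj8 and Vtn, Gfra2 was at 225 CPM (205 to 247) over the 4 libraries together, the highest level of the gene among the 32 clusters, while Ntrk2 gave at most 2 UMIs per library and Ntrk3 gave 0. In the cluster led by the smooth muscle genes Acta2, Tagln and Myh11, Ntrk2, Ntrk3 and Ntf3 were found together. Ntrk3 there was at 100 CPM (65.0 to 148) in TA WT, 73.8 CPM (57.0 to 93.8) in TA DMD, 77.2 CPM (31.04 to 159) in EOM WT and 72.3 CPM (38.5 to 124) in EOM DMD, with all 4 intervals overlapping. This was the highest level of Ntrk3 among the clusters, at 78.5 CPM (64.6 to 94.5) over all libraries, with 71.7 CPM (55.5 to 91.2) in the Scn7a-led Schwann-like cluster next and not apart from it by their intervals. In TA WT, TA DMD, EOM WT and EOM DMD, Ntrk2 was at 88.4, 93.9, 121 and 106 CPM and Ntf3 at 64.3, 67.1, 66.2 and 83.4 CPM, and neither differed between libraries beyond its counting interval. The cluster had 32, 440, 11 and 24 cells in these libraries, so intervals were wide outside TA DMD and only large differences could have been seen. Of 76 cells with Ntrk3 in this cluster, 28 also held Ntf3, its ligand, and 38 also held Ntrk2. In a Ccl11-led mural-like cluster Ntrk2 was at 330 CPM (218 to 481) in 14 cells of TA WT, 89.7 CPM (72.0 to 110) in 162 cells of TA DMD and 121 CPM (77.6 to 180) in 22 cells of EOM DMD, with no Ntrk3 UMI. Its 7 cells of EOM WT were under the 10 for which levels were computed.

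**Figure D4:**
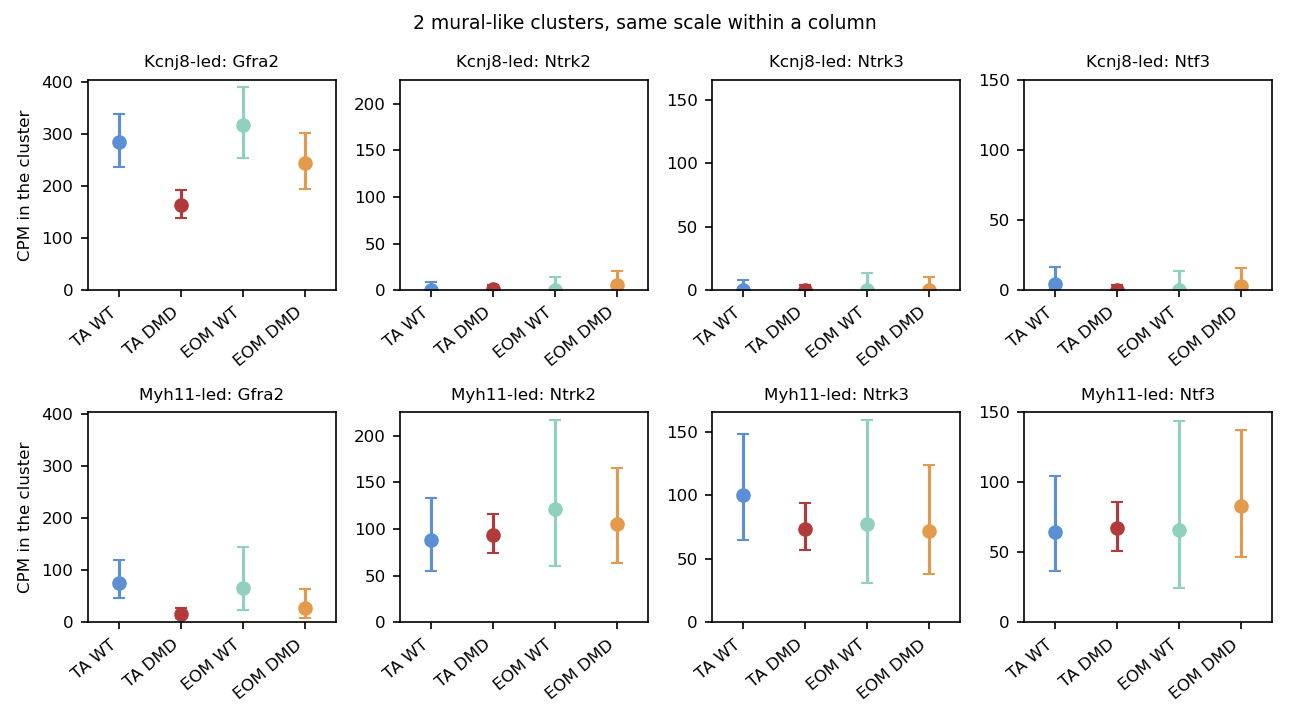
CPM of Gfra2, Ntrk2, Ntrk3 and Ntf3 by library in the Kcnj8-led (top) and Myh11-led (bottom) mural-like clusters (points, 95% Poisson intervals; the y scale is shared within a column and starts at 0). Gfra2 is high in the top row, Ntrk2, Ntrk3 and Ntf3 are near 0 there and present in the bottom row, and Gfra2 is lowest in TA DMD in the top row.

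Gfra2 was lower in the DMD than in the WT library of both muscles over the mural-like class. It was at 192 CPM (162 to 225) in TA WT, 56.5 CPM (49.3 to 64.5) in TA DMD, 221.7 CPM (179 to 272) in EOM WT and 118 CPM (94.97 to 144) in EOM DMD. The difference was 3.39-fold (2.74 to 4.19) in TA and 1.88-fold (1.40 to 2.54) in EOM. Cluster makeup moved with it: the Kcnj8-led cluster held 65.4% of mural-like cells in TA WT and 16.1% in TA DMD, where 47.4% lay in a shallow cluster that held 8.94% in TA WT. Within the Kcnj8-led cluster Gfra2 was 285 CPM (237 to 339) in TA WT, 164 CPM (139 to 192) in TA DMD, 317 CPM (253 to 391) in EOM WT and 244 CPM (195 to 302) in EOM DMD. The difference there was 1.73-fold (1.36 to 2.21) in TA, or -0.76 on the log2 scale against -1.60 for the class, and in EOM 1.30-fold (0.949 to 1.77), within counting error.

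Of the pathway list in mural-like cells, 5 of 44 genes were at least 2-fold lower and 2 higher in TA DMD than in TA WT, against 1.64% lower and 3.36% higher over 11078 genes. The lower genes included Gfra2 and Ptn (1507 to 574 CPM), and Plat was higher (27.9 to 106 CPM). Between the EOM libraries 2 of 32 were higher and 0 lower (4.56% and 2.16% over all genes), 1 of them Plat at 16.9 and 83.5 CPM. In the WT pair 0 of 31 passed in either direction (1.01% higher and 2.47% lower over all genes). In the DMD pair 4 of 43 were higher in EOM and 1 lower (1.19% and 1.29%), Mdk among the higher.

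Schwann-like cells held Ntrk2 at 260 CPM (168 to 384) in TA WT, 211 CPM (171 to 256) in TA DMD, 361 CPM (288 to 446) in EOM WT and 322 CPM (266 to 386) in EOM DMD. TA WT and EOM WT had 24 and 42 such cells, fewer than the 50 needed for a comparison. EOM DMD was 1.53-fold higher (1.16 to 2.02) than TA DMD, but when each library was clustered alone the log2 ratio turned from 0.59 to -0.0082. Ntrk3 was at 62.4, 35.8, 97.7 and 55.5 CPM in TA WT, TA DMD, EOM WT and EOM DMD, and Ngfr at 93.6, 42.1, 8.49 and 33.3 CPM, with 2 to 20 UMIs of Ngfr per library. Gfra2 was at 208, 50.5, 127 and 155 CPM, 3.07-fold higher (1.87 to 5.18) in EOM DMD than in TA DMD. The makeup of the class differed between these libraries: the Scn7a-led cluster described below held 74.3% of it in TA DMD and 88.4% in EOM DMD, and its sub-cluster 2, where Gfra2 was highest, had 17 of 168 cells in TA DMD and 32 of 61 in EOM DMD. Within sub-cluster 2 Gfra2 was at 443 CPM (248 to 730) in TA DMD and 445 CPM (329 to 588) in EOM DMD. Endothelial markers summed to 1149.6 CPM in the TA DMD cells and 8.32 CPM in the EOM DMD cells, and their part in these differences was not tested.

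Of the pathway list in Schwann-like cells, 5 of 35 genes were at least 2-fold higher and 2 lower in EOM DMD than in TA DMD, against 2.76% higher and 8.51% lower over 7812 genes. The higher genes were Cntf (ciliary neurotrophic factor, made by myelinating Schwann cells; 139 to 349 CPM), Ptn (608 to 1478 CPM), Ncam1, Gfra2 and Gfra3, the co-receptor of artemin (84.2 to 258 CPM). Bdnf and Il6st were lower, at 2.77 against 21.1 CPM and 116 against 293 CPM. These counts compare classes of the different makeup given above. Of the 126 Cntf UMIs in EOM DMD, sub-clusters 0, 2 and 3 of the Scn7a-led cluster held 13, 8 and 0. The class also includes a cluster with the myelin gene Mbp among its leading genes, with 8 cells of EOM DMD and 58 of TA DMD. Within sub-cluster 2, Gfra3 was at 591 CPM (361 to 912) in TA DMD and 835 CPM (673 to 1024) in EOM DMD, and Ncam1 at 295 CPM (142 to 543) and 281 CPM (191 to 399).

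The receptors separated within the Schwann-like cells. A cluster with the myelin gene Mbp among its leading genes had Ntrk2 at 20.3 CPM and Cntf at 968 CPM over the 4 libraries together, while the cluster led by S100b and Scn7a, called Scn7a-led here, had 349 CPM (312 to 389) and 44.5 CPM. In the Scn7a-led cluster 37 of the 45 cells with Ntrk3 also held Ntrk2, and 19 of the 32 cells with Ngfr also held Gfra2, whereas 5 of the 32 cells with Ngfr held Ntrk2.

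Clustering the 291 cells of that Scn7a-led cluster again, without the members and pathway genes, gave 5 sub-clusters, and the pairs parted between 2 of them. Sub-cluster 0, with 85 cells from all 4 libraries and led by Tf, Cpm and Gpc3, had Ntrk2 at 527 CPM (468 to 592), in 69 of its cells, and Ntrk3 at 112 CPM (86.0 to 145). Gfra2 was 5.53 CPM (1.14 to 16.2) there. In sub-cluster 2, with 64 cells, Gfra2 was at 536 CPM (436 to 653), Ngfr at 146 CPM (96.4 to 213) and Gfra3 at 818 CPM (692 to 959), while Ntrk2 was 48.7 CPM (22.3 to 92.5). By library, Ntrk2 in sub-cluster 0 was 400, 557, 459 and 617 CPM in TA WT, TA DMD, EOM WT and EOM DMD, and in sub-cluster 2 it was 0, 29.5, 179 and 27.2 CPM in 4, 17, 11 and 32 cells. Gfra2 in sub-cluster 2 was 791, 443, 895 and 445 CPM and in sub-cluster 0 16.0, 7.96, 0 and 5.56 CPM. In each library Ntrk2 was thus higher in sub-cluster 0 and Gfra2 higher in sub-cluster 2. The Gfra2 intervals were apart in each library, and those of Ntrk2 in the DMD libraries only. In TA WT the Ntrk2 intervals were 259 to 591 CPM in sub-cluster 0 and 0 to 292 CPM in sub-cluster 2. In EOM WT they were 364 to 572 CPM and 58.1 to 418 CPM, so both WT libraries had overlapping intervals. Sub-cluster 3, with 50 cells, had haemoglobin genes among its leading genes. Over the 4 libraries together it had Ntrk2 at 144 CPM (80.8 to 238), Gfra2 at 221 CPM (140.3 to 332) and Ngfr at 106 CPM (52.8 to 189). Its libraries differed: 14 of the 15 Ntrk2 UMIs came from 35 cells of TA DMD, where Gfra2 was at 44.4 CPM. In 8 cells of TA WT Gfra2 was at 641 CPM and Ntrk2 gave 0 UMIs. In 6 cells of EOM DMD Gfra2 gave 6 UMIs and Ntrk2 1. Bdnf was at 67.3 CPM (27.1 to 139), in 7 cells, 6 of them from TA DMD. A shallow sub-cluster of 79 cells, all from TA DMD, was led by endothelial genes such as Fabp4 and Cdh5, and had Ntrk2 at 128 CPM (61.3 to 235) and Gfra2 at 63.97 CPM (20.8 to 149). RET, the signalling partner of GFRα2, gave 0 Ret UMIs in Schwann-like cells of all 4 libraries.

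**Figure D5:**
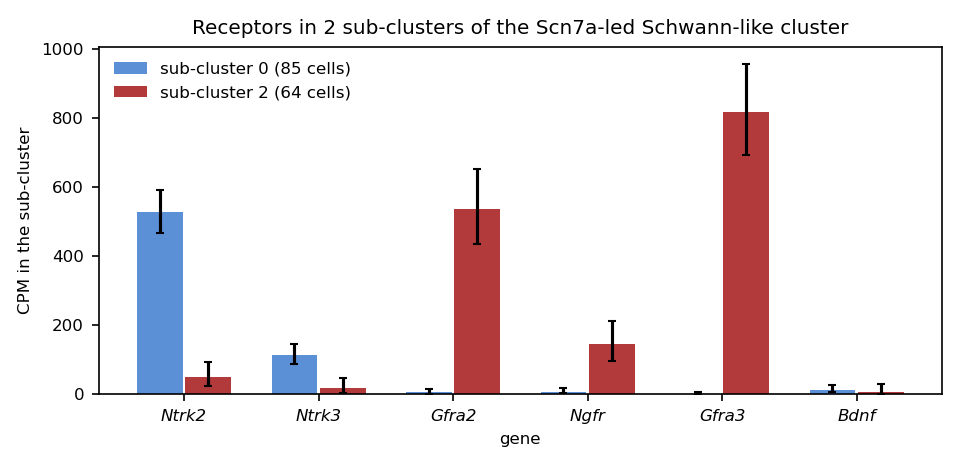
CPM of 5 receptors and of Bdnf in 2 sub-clusters of the Scn7a-led Schwann-like cluster, all libraries together (bars from 0, 95% Poisson intervals). Ntrk2 and Ntrk3 stand high in sub-cluster 0, at 527 and 112 CPM, and Gfra2, Ngfr and Gfra3 in sub-cluster 2, at 536, 146 and 818 CPM.

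Ngfr, which encodes p75, was highest among the 32 clusters, over all libraries, in one that was left unnamed. This cluster of 65 cells, 49 from TA DMD and 12 from EOM DMD, with Mbp and Itgb4 among its leading genes, held it at 102 CPM (75.5 to 135), against 46.7 CPM (33.8 to 62.9) in the Scn7a-led Schwann-like cluster and 24.2 CPM (16.6 to 34.2) in the Ccl11-led mural-like cluster. The same 65 cells had Gfra2 at 146 CPM (114 to 184). It was left unnamed because markers of Schwann and of perineurial cells were both high in it. Macrophage/monocyte-like cells had Ngfr at 22.5 CPM (14.3 to 33.8) over all libraries, with 6, 1, 5 and 11 UMIs in TA WT, TA DMD, EOM WT and EOM DMD, and satellite-like cells had at most 1 UMI per library.

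Endothelial-like cells had nearly all of their Ntrk2 UMIs in TA DMD. They gave 0 UMIs in 1568 cells of TA WT, 74 UMIs in 44 of 2783 cells of TA DMD, 1 UMI in EOM WT and 2 UMIs in EOM DMD. Of the 74, 64 lay in 34 cells of the Plvap- and Selp-led cluster, which also held 20 of the 23 Ngfr UMIs and 10 of 10 Bdnf UMIs of the class in that library. Fibroblast markers summed to 2289 CPM and mural markers to 1332 CPM in that cluster in TA DMD, against 20.4 CPM each in its 12 cells of TA WT, and their part in the counts was not tested. Without that cluster the log2 ratio of TA DMD to TA WT in endothelial-like cells went from 0.95 to 0.29 for Ntrk2.

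The genes whose levels most resembled each receptor over 32 class and library sums were compared by Pearson's r of log2(CPM + 10). For Ntrk2 they were Efs (r = 0.90, Spearman's rho = 0.84), Tnfaip6 (0.89, 0.85) and Mdk (0.88, 0.85). For Gfra2 they included Hspa12a (0.92, 0.74) and Cspg4 (0.91, 0.70), for Ntrk3 Hspa12a (0.86, 0.74), Nrn1 (0.85, 0.74) and Fxyd7 (0.85, 0.76), and for Ngfr Col28a1 (0.85, 0.71), Adgrg6 (0.80, 0.74) and Cpm (0.76, 0.56). For the ligand Ntf3 they were Lpl (0.85, 0.87), Enc1 (0.83, 0.83) and Grb10 (0.78, 0.80). Sums of 1 library share its depth and its free RNA, so these are descriptions.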

How the data were processed

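The authors deposited whole-number UMI counts per gene and barcode, not normalized, which come from Cell Ranger (4.0.0) according to the file headers; the submitters' processing notes name genome build rn6. From these counts, barcodes with under 500 UMIs, under 200 genes or over 20% mitochondrial UMIs were left out, which kept 14233 of 17504. The automatic scrublet threshold marked 30 cells, too few, so the highest scores were removed up to 0.8% per 1000 cells (676 cells), leaving 13557. Cells were clustered with scanpy 1.11.5 (2000 variable genes, members and pathway genes left out; 30 components, 15 neighbours, Leiden resolution 1) into 32 clusters, named from marker lists. The rule that left 2 clusters unnamed was chosen once clusters were known. Counts were summed per class and library; classes with at least 50 cells in both libraries were compared. TMM factors (edgeR 4.0.16) were an alternative. Ratio code was tested on simulated data. Members and lists were chosen with earlier results of these data known. Named were all members, pathway genes with at least 100 CPM in a class of at least 50 cells, Ret, and the 3 genes most like each member with at least 100 UMIs; some genes that this rule names are not reported here, and other genes are marked where used, or head a cluster.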

Additional observations from a re-analysis of the deposited data

Results flagged for a closer look

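For 3 results the log2 ratio of DMD over WT had opposite directions in TA and EOM, and the difference was not tested because each group is 1 library. In satellite-like cells Ntrk2 was -4.42 in TA and 0.20 in EOM, a difference of 4.62. In mural-like cells Ntrk2 was -0.19 and 0.03, a difference of 0.22, and Ntf3 was -0.24 and 0.31, a difference of 0.55, with overlapping counting intervals of the levels in each muscle. The 3271 barcodes left out by the filters held 224 UMIs of the 7 genes together, at 24.9 CPM (21.8 to 28.4), above the 0.334 CPM that a count of 0 allows and below the 116 CPM (112 to 119) of the analysed cells.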

How the results depend on the processing

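Log2 ratios, levels, percentages and list counts were each recomputed under some of a set of alternatives. These were other cell filters, doublet handling, clusterings, per-cell means, scalings, priors, minimum counts, and thinning to 1000 UMIs with shallower cells left out. Of 552 recomputed log2 ratios for 48 results, 512 stayed within a counting interval of the main ratio, 39 left it and 1 turned. A turn was counted only where the interval of the main ratio excluded 0. Changes of sign in other ratios were counted with the 512 or the 39. The one that turned was Ntrk2 in Schwann-like cells, EOM DMD over TA DMD, from 0.59 to -0.0082 with each library clustered alone. That interval paired opposite ends of the 2 levels' Poisson intervals, with the prior of 10 CPM added. It is a wide interval and not the conditional exact one given with fold changes. Of recomputed levels in CPM, 89 stayed within the main Poisson interval and 16 left it. Of recomputed percentages, 109 stayed within the main Clopper-Pearson interval and 58 left it. These percentages were shares of a gene's UMIs held by a class, and shares of cells with unthinned set against thinned. A prior of 1 CPM took Ntrk2 in satellite-like cells to -6.68 (TA DMD over TA WT) and 6.18 (EOM DMD over TA DMD), and in fibroblast-like cells took Ntf3 to 2.33 and Gfra2 to -2.07 (EOM DMD over TA DMD). Setting values at or below the library's CPM to 0 gave 2.74 and -1.69 for the latter 2. Thinning gave -4.91 for satellite-like Ntrk2 in TA and 2.55 for Schwann-like Gfra2. Gfra2 in mural-like cells of TA went from -1.60 to -2.00 with per-cell means and to -0.76 within the Kcnj8-led cluster, chosen after seeing the data, as were the other cluster restrictions. TMM scaling added -0.06 to 0.22 to log2 ratios, which took satellite-like Ntf3, EOM WT over TA WT, from -1.0006 to -0.88 and, in the DMD pair, from -1.05 to -0.85.

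Counts of list genes past 2-fold also moved. With a prior of 1 CPM they were 4 and 7 in satellite-like cells (EOM DMD over EOM WT, from 2, and EOM WT over TA WT, from 4), 7 and 16 in fibroblast-like cells (from 0 and 8), and 11, 7, 3 and 10 in mural-like cells (from 7, 2, 0 and 5). With at least 50 UMIs, satellite-like counts were 7, 1 and 2 (from 12, 2 and 4). TMM gave 1, and thinning 4 and 2, for the latter 2 satellite-like comparisons in turn. Thinning also gave 1 in fibroblast-like cells of EOM and 0 in mural-like cells of EOM, where the strict filter gave 5. No paired analysis was possible because each group is 1 library. The 24 and 42 Schwann-like cells of the WT libraries, and 20 fibroblast-like cells of TA WT, limit those comparisons.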

Other observations

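Among pathway genes outside the comparisons above, Ptn, the heparin-binding growth factor pleiotrophin, was higher in endothelial-like cells of both DMD libraries, at 17.2 CPM in TA WT, 213 CPM in TA DMD, 15.4 CPM in EOM WT and 204 CPM in EOM DMD. Il6st in the same cells was at 87.2 CPM in TA WT and 353 CPM in TA DMD, and 95.3 CPM in EOM WT and 113 CPM in EOM DMD. The Plvap- and Selp-led cluster held 0.765% of endothelial-like cells in TA WT, 27.6% in TA DMD, 0.914% in EOM WT and 3.77% in EOM DMD. Mural-like cells had Ptn at 1507 CPM in TA WT and 574 CPM in TA DMD. The part of cluster makeup and of RNA from other cells in these differences was not tested. Gfra3 was also found in T cell-like and natural killer-like clusters, at 94.2 and 82.7 CPM.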
